A study of Mus musculus with 20 samples.

Results

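MiR-21 and miR-21*, the 2 mature strands of 1 microRNA (miRNA) hairpin, were followed in the left ventricle of mouse hearts under pressure overload. On the Mouse & Rat miRNA OneArray they are the 2 probes, among 1086 mouse miRNA probes, with the names mmu-miR-21 and mmu-miR-21*. The mice were 8-week-old male C57BL/6J animals. They underwent transverse aortic banding (TAB), in which a constriction around the aortic arch raises the pressure against which the left ventricle must pump, or a sham operation. Left ventricles were collected 3, 5, 7, 14, and 28 days later. Total RNA of every surgery and day was labelled with Cy5 and hybridized to 2 arrays, which gave 10 TAB and 10 sham arrays. In the TAB group the arrays titled day 14 carry 15 days in another label, and the title was followed. The 2 arrays of a condition are technical replicates according to the methods, and the number of hearts behind an array is not stated, so a p-value between repeated arrays measures only technical spread. The tissue was whole left ventricle, in which more cells of a type and more RNA per cell cannot be told apart.

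A miRNA hairpin is cut by Drosha and Dicer into a short duplex. As a rule 1 strand of the duplex is kept by an Argonaute protein and guides it to mRNAs that pair with the seed at its 5′ end, while the opposite strand, marked with a star in the array's nomenclature, is mostly degraded. MiR-21 is known from cardiac fibroblasts, where it is described as rising in the stressed heart and as repressing Spry1, an inhibitor of ERK signalling, and it also targets Pdcd4 in other cells. MiR-21* has been described in rat cardiac fibroblasts as a star strand that is exported in exosomes to heart muscle cells.

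The sequences of both strands are shown because they share 1 precursor but have unrelated seeds, so they can be measured and can act separately. Both were taken from RefSeq on build GRCm38.p6, where the strands are named miR-21a-5p and miR-21a-3p, and the capitals mark the seed (bases 2 to 8).
miR-21, chr11:86584120-86584141, minus strand: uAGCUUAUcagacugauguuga
miR-21*, chr11:86584082-86584103, minus strand: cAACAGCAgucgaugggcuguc
The hairpin, Mir21a, spans 92 bases at chr11:86584067-86584158. It lies within the annotated span of Vmp1, a gene of autophagy, on the same strand and 209 bases from the 3′ end of that gene, and the annotation table used here gives no exon boundaries. In the fold computed by RNAfold, 19 of the 22 bases of miR-21 paired with miR-21*. Among 1738 mature mouse sequences of the RefSeq table, 2 carried the seed of miR-21, which are miR-21 itself and miR-21c, described below. MiR-21* was the only one with its seed.

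The table holds a pair of near copies of miR-21 that have no probe of their own name on the array, shown because the signal of the miR-21 probe could include them.
miR-21b, chr3:29636768-29636790, plus strand: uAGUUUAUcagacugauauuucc
miR-21c, chr8:128278188-128278208, minus strand: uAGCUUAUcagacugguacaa
Counted from the 5′ end, miR-21b differed from miR-21 by C4U, G18A, G21U, and A22C, which includes 1 base of the seed. MiR-21c kept the seed and differed by A16G, G18A, U19C, U20A, and G21A. The probe sequences are not given in the sources used here, so RNA of miR-21, miR-21b, and miR-21c cannot be told apart in the miR-21 signal.

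The probe of miR-21 gave a strong signal on every array, and that of miR-21* stayed close to the level of empty spots. Each miRNA has 3 spots on an array, and it was counted as found where at least 2 of them had no negative flag of the scanner software. MiR-21 was found on all 10 TAB arrays, at 20.3 to 44.8 times the median of the array's empty spots, and on all 10 sham arrays, at 4.32 to 11.1 times. None of its spots carried a negative flag, and the brightest, at 3177, lay far below the scanner ceiling of 65535. MiR-21* was also found on all 10 TAB arrays, at 1.32 to 1.88 times the empty spots, but on only 5 of 10 sham arrays, at 1.33 to 1.51 times. Of its 30 spots in each surgery, 2 in TAB and 12 in sham carried a negative flag. Sham arrays were the brighter ones over all miRNAs, with a raw 75th percentile of 180 to 287.75 in TAB and 303 to 443.75 in sham, and each TAB array held 490 to 648 found miRNAs against 570 to 698 on each sham array.

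Before any scaling, the median raw intensity of miR-21 was 2787 and 1716 on the TAB arrays of day 3, against 544 and 552 on the sham arrays of that day. On day 5 it was 2321 and 2915 in TAB, against 427 and 405 in sham, and on day 7 it was 2636 and 2717 in TAB, against 448 and 320 in sham. All 6 TAB arrays of the first week were brighter than every sham array of the study. On day 14 the values were 2727 and 2619 in TAB and 756 and 510 in sham, and 756 was the highest of the 10 sham values. On day 28 they were 1526 and 1343 in TAB and 368 and 331 in sham, so that the dimmest TAB arrays still lay above every sham array. The ratio of the raw TAB mean to the raw sham mean was 4.11, 6.29, 6.97, 4.22, and 4.10 on days 3, 5, 7, 14, and 28. With the empty spots subtracted, these ratios were 4.56, 7.35, 8.36, 4.62, and 4.87.

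For miR-21*, the raw intensity was 122 and 111 in TAB and 97 and 103 in sham on day 3. It was 118 and 120 in TAB and 98 and 100 in sham on day 5, and 121 and 121 in TAB and 94 and 99 in sham on day 7. All TAB arrays of these 3 days were brighter than all sham arrays, at 111 to 122 in TAB and 94 to 103 in sham, over empty spots with medians of 65 to 74. On day 14 miR-21* measured 108 and 100 in TAB and 102 and 102 in sham, and on day 28 it measured 99 and 87 in TAB and 93 and 92 in sham, so the raw values of the surgeries overlapped on both late days. Raw TAB over sham ratios of the means were 1.20 and 1.25 on days 5 and 7 and 1.02 and 1.01 on days 14 and 28. Net of empty spots they were 1.63, 1.77, 2.24, 1.15, and 1.00 over the 5 days. MiR-21* was found on neither sham array of day 28.

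**Figure D1:**
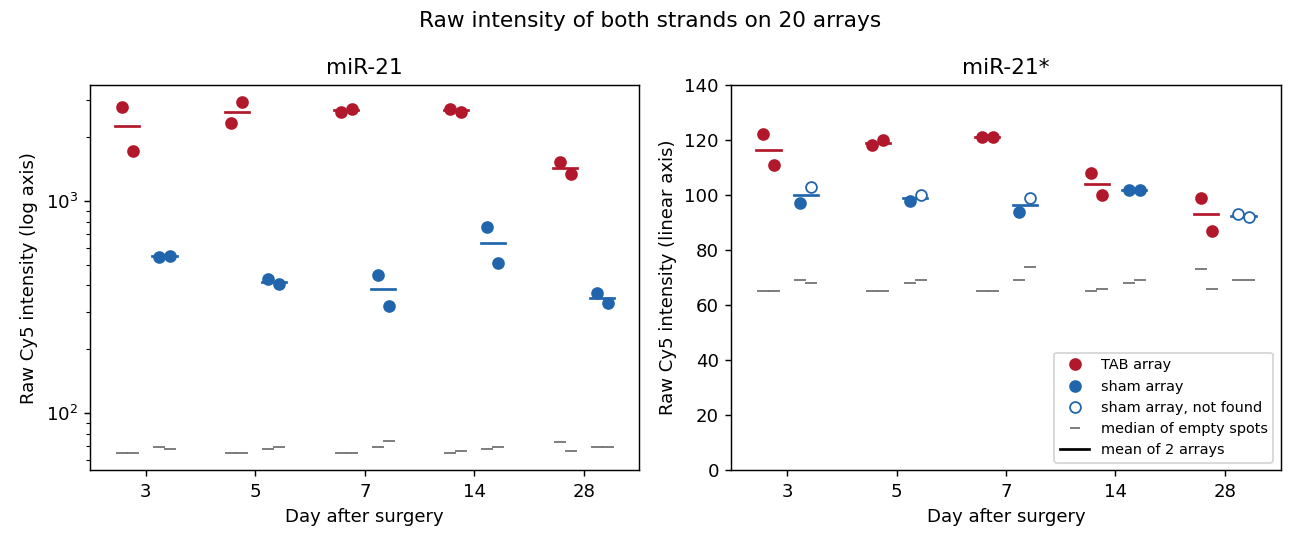
Raw Cy5 intensity (median of 3 spots) of miR-21 on a log axis and of miR-21* on a linear axis for each of the 20 arrays by day after surgery, TAB (red) left of sham (blue); open points are arrays on which the strand was not found, short grey lines the array's empty spots, and coloured lines the mean of 2 arrays. The lowest TAB value of miR-21 is 1343 and the highest sham value 756, while the values of miR-21* overlap on days 14 and 28.

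After quantile normalization over the 20 arrays, miR-21 was the miRNA with the largest TAB minus sham difference of all 928 tested. Its log2 intensity averaged 11.36 ± 0.55 in TAB and 8.48 ± 0.30 in sham (SD, n = 5 samples each, a sample being the mean of the 2 arrays of a surgery and day). The difference was 2.88 ± 0.24 (SE, limma with day as a block, adjusted p = 0.00129), which is 7.38-fold (95% interval 4.92 to 11.1). Among all miRNAs tested, 19.3% passed in this direction and 21.8% in the other. The exact sign-flip permutation test over the 5 days gave p = 0.0625 for miR-21, two-sided, which is the smallest p that 5 days allow.

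MiR-21* rose as well, by a much smaller amount. It averaged 6.97 ± 0.30 in TAB and 6.51 ± 0.03 in sham (SD, n = 5 each), a difference of 0.46 ± 0.12 (SE) or 1.38-fold, with a limma adjusted p of 0.0290, and it ranked 93 of 928. The difference was positive on 5 of 5 days (exact permutation p = 0.0625, again the smallest possible). Both strands had all 10 TAB arrays above all 10 sham arrays after normalization, as had 6.68% of the miRNAs tested. For miR-21 the lowest TAB array lay at 10.47 and the highest sham array at 9.03. For miR-21* they lay at 6.58 and 6.56, and its raw values overlapped, at 87 to 122 in TAB and 92 to 103 in sham. The call of miR-21* was lost when day 3, 5, or 7 was left out (0.43, 0.38, and 0.40, adjusted p = 0.0889, 0.0813, and 0.0933), without scaling between arrays (0.17, adjusted p = 0.0860), and with a quantile target per surgery (0.15, adjusted p = 0.272).

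By day, the difference in miR-21 was 2.76 on day 3, 3.56 on day 5, 3.55 on day 7, 2.23 on day 14, and 2.32 on day 28 (SE 0.13 each), which is 6.78-, 11.8-, 11.8-, 4.68-, and 4.99-fold. These 5 contrasts of the 20-array limma fit, whose error is the spread between repeated arrays, had adjusted p of 9.29e-09, 3.57e-10, 3.62e-10, 7.15e-08, and 2.84e-08. In this direction 17.7%, 19.1%, 17.6%, 12.3%, and 18.1% of all miRNAs passed on days 3, 5, 7, 14, and 28. MiR-21 ranked first on days 3, 5, 7, and 14. Next to it stood miR-27a on day 3, at 1.84, and the common probe for miR-199a-3p with miR-199b on days 5, 7, and 14, at 2.13, 2.05, and 1.96. On day 28 that common probe ranked first, at 2.34, ahead of miR-21 and of miR-208b, a miRNA encoded in a myosin gene, at 2.01.

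For miR-21* the differences were 0.58, 0.79, and 0.71 on days 3, 5, and 7 (SE 0.06 each, limma adjusted p = 7.02e-06, 2.86e-07, and 7.5e-07). They were 0.17 on day 14 (adjusted p = 0.0417) and 0.07 on day 28 (adjusted p = 0.373). The rank of miR-21* among all miRNAs was 78, 60, 62, 203, and 310 on days 3, 5, 7, 14, and 28. Its day 14 call was lost without the first TAB array (0.09, adjusted p = 0.351), without the first sham array (0.19, adjusted p = 0.0841), and without the second sham array of that day (0.15, adjusted p = 0.169). Under the fold rule of the methods, a log2 ratio beyond 2 SD of all miRNAs on the day, miR-21 passed on all 5 days and miR-21* on none. The cuts were 0.89, 1.01, 0.96, 0.70, and 1.03, and 3.23%, 4.2%, 3.77%, 2.69%, and 4.85% of all miRNAs exceeded them on days 3, 5, 7, 14, and 28.

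**Figure D2:**
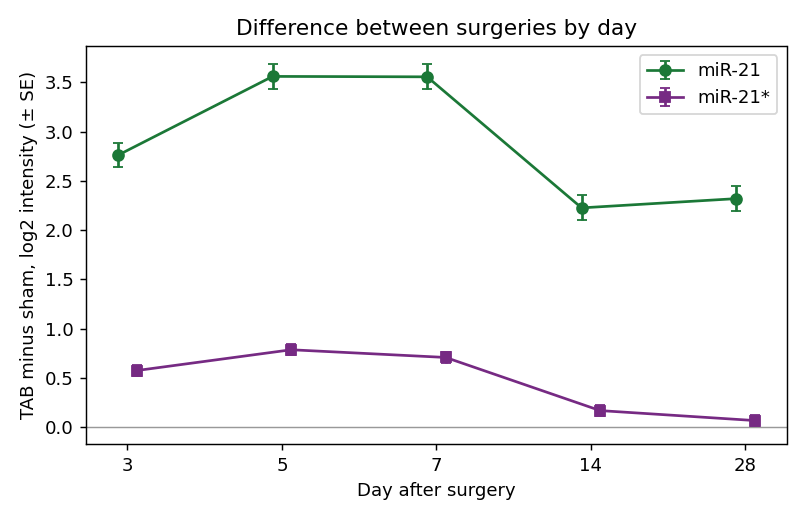
TAB minus sham difference in normalized log2 intensity of miR-21 (green circles) and miR-21* (purple squares) by day after surgery, with days evenly spaced and bars showing the SE between repeated arrays. Both curves are highest on days 5 and 7; miR-21 ends at 2.32 and miR-21* at 0.07 on day 28.

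The level of miR-21 changed between days in both surgeries. Normalized log2 intensity in TAB was 11.33, 11.90, 11.84, 11.20, and 10.55 on days 3, 5, 7, 14, and 28, and in sham it was 8.57, 8.34, 8.28, 8.97, and 8.23. In order from the top, the TAB days ran 5, 7, 3, 14, and 28, followed by the sham days 14, 3, 5, 7, and 28. The arrays of neighbours overlapped for TAB days 5 and 7, TAB days 3 and 14, sham days 5 and 7, and sham days 7 and 28. Within TAB, miR-21 rose by 0.57 between days 3 and 5 (limma adjusted p = 0.0247), a step at which 2.59% of miRNAs rose. It fell by 0.64 between days 7 and 14 (adjusted p = 0.00962) and by 0.65 between days 14 and 28 (adjusted p = 0.0145), where 2.80% and 2.05% of miRNAs fell, while days 7 and 5 differed by -0.06 (adjusted p = 0.853). The steps of days 3 to 5 and 7 to 14 were no longer called without scaling between arrays (0.25 and -0.0020) or with scaling to the 75th percentile (0.47 and -0.43), and that of days 14 to 28 was not called without scaling (-0.90, adjusted p = 0.0749).

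In sham, miR-21 was 0.69 higher on day 14 than on day 7 (adjusted p = 0.00300, and 0.0802 without scaling), and it fell by 0.74 between days 14 and 28 (adjusted p = 0.00203). At these steps 7.11% of all miRNAs rose and 9.59% fell in sham. Day 14 thus had the highest sham level of the 5 days. MiR-21* in sham stayed between 6.47 and 6.55 on all days, and no step between consecutive days passed the test (adjusted p 0.605 to 0.938). It was found on only 5 of 10 sham arrays, at 1.33 to 1.51 times the empty spots. A steady level can therefore not be told apart from a signal near background. In TAB miR-21* measured 7.08, 7.26, 7.21, 6.72, and 6.59, with a fall of 0.49 between days 7 and 14 (adjusted p = 0.000169) as the only step that passed. Without scaling this step was -0.22 (adjusted p = 0.0540), and in the processed table the step of days 3 to 5 also passed (0.25, adjusted p = 0.0137).

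On average, the TAB minus sham difference in miR-21 was smaller on the late days than in the first week, but this did not pass the test between samples. Averaged over days 14 and 28, the difference less its average over days 3, 5, and 7 was -1.02 ± 0.28 for miR-21 (SE, limma on 10 samples, unadjusted p = 0.0149, adjusted p = 0.699), the lowest of 928 values. For miR-21* it was -0.57 ± 0.10 (unadjusted p = 0.00207, adjusted p = 0.699), at rank 910. In this limma test 0 miRNAs passed in either direction, which is 0% of 928, and 58 had an unadjusted p below 0.05. Against the technical spread of the 20 arrays, in a fit added after the data were seen, the adjusted p was 0.000151 for miR-21 and 5.03e-05 for miR-21*, with 6.36% of miRNAs lower and 4.63% higher. Without scaling, late minus early on the 10 samples was -0.42 for miR-21 (limma adjusted p = 0.281) and -0.25 for miR-21* (adjusted p = 0.157). Raw TAB over sham ratios of miR-21 were 4.11 on day 3, 6.29 and 6.97 on days 5 and 7, and 4.22 and 4.10 on days 14 and 28.

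On each of the 5 days miR-21 differed more than miR-21*. The difference in miR-21 exceeded that in miR-21* by 2.18, 2.77, 2.85, 2.06, and 2.25 on days 3, 5, 7, 14, and 28, with a mean of 2.42 (SD 0.36, n = 5 days, exact permutation p = 0.0625, the smallest possible). The log2 values carry no subtraction of the empty spots, to which miR-21* in sham was close, with only 5 of 10 arrays on which it was found. With the empty spots subtracted, the raw ratios were 4.56 to 8.36 for miR-21 and 1.00 to 2.24 for miR-21*. Over the 10 samples the levels of the strands had a Pearson r of 0.89, which was 0.94 within the 5 TAB samples and 0.65 within the 5 sham samples. These samples share arrays and scaling, and r is given as a description.

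Other hairpins with both strands retained put the pair in context. Of 187 such hairpins, 68 had a named strand that rose and 23 a star strand that rose, and both strands rose in 14, among them miR-21. These are 36.4% and 12.3% of the hairpins, against 19.3% of all 928 miRNAs that rose. Of the 187 star strands, 63 were found on every array and 36 on none. In 46 the named strand rose while the star strand did not pass, 11 of them with a star strand found on no array, and in 8 the named strand rose while the star strand fell. Also 2 of the 23 star strands that rose were found on no array. The median difference was 0.07 for named strands and -0.01 for star strands. The gap between strands was widest for miR-21, at 2.42, followed by miR-23a at 1.60. Among star strands the difference of miR-21* ranked 5 of 187, below miR-140*, miR-677*, miR-22*, and miR-491*. It ranked 1 at the 75th percentile, without scaling, with a quantile target per surgery, and in the processed table. Without scaling 15 named strands and 0 star strands passed as higher, and with scaling to the 75th percentile 136 and 128 did. The gap of miR-21 was 2.15 in both, since a factor per array cancels between strands, and it was 2.14 with a quantile target per surgery, where it again ranked first of 187.

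**Figure D3:**
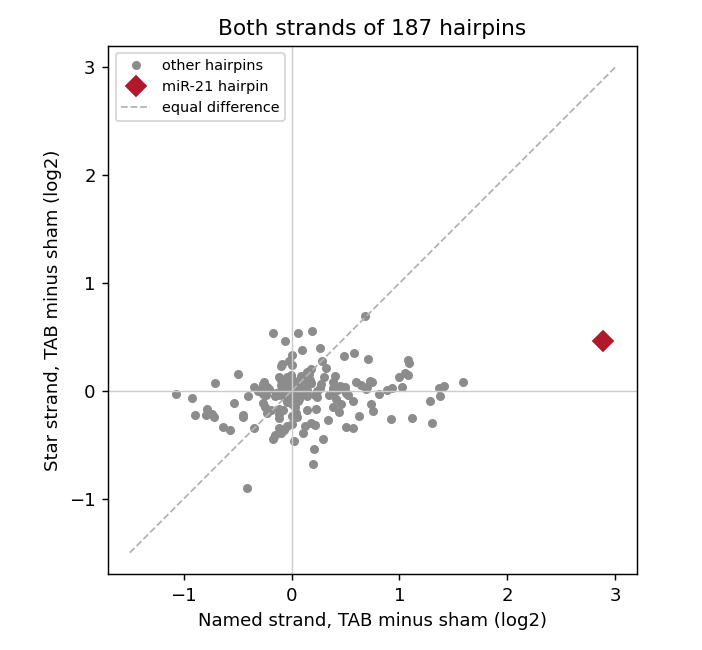
TAB minus sham difference over 5 days (log2) of the named strand on the x axis and of its star strand on the y axis for 187 hairpins, with miR-21 as a red diamond and the dashed line where both strands differ equally. The miR-21 pair lies far to the right of all others, at 2.88 for miR-21 and 0.46 for miR-21*.

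The size of both differences depended on how the arrays were scaled to each other. With each array scaled to its 75th percentile, miR-21 differed by 2.97 (7.82-fold) and miR-21* by 0.82 (1.76-fold, adjusted p = 4.44e-05), while the median of all miRNAs moved to 0.40. Without scaling the values were 2.32 (5.00-fold, adjusted p = 0.000448) for miR-21 and 0.17 for miR-21*, at a median of -0.25. With a separate quantile target for each surgery, a reading of the methods, they were 2.29 (4.89-fold, adjusted p = 0.000601) and 0.15, at a median of -0.28, and miR-21* was then higher in TAB on only 3 of 5 days. The split of calls moved with the scaling, at 179 higher and 202 lower in the main fit, 593 and 110 (63.9% and 11.9% of 928) at the 75th percentile, 27 and 500 (2.91% and 53.9%) without scaling, and 34 and 683 (3.66% and 73.6%) with separate targets. Set against the median of all miRNAs, miR-21 stood 2.57 to 2.96 higher and miR-21* 0.42 to 0.56 higher under the 9 ways of processing, and miR-21 ranked first in each of them.

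**Figure D4:**
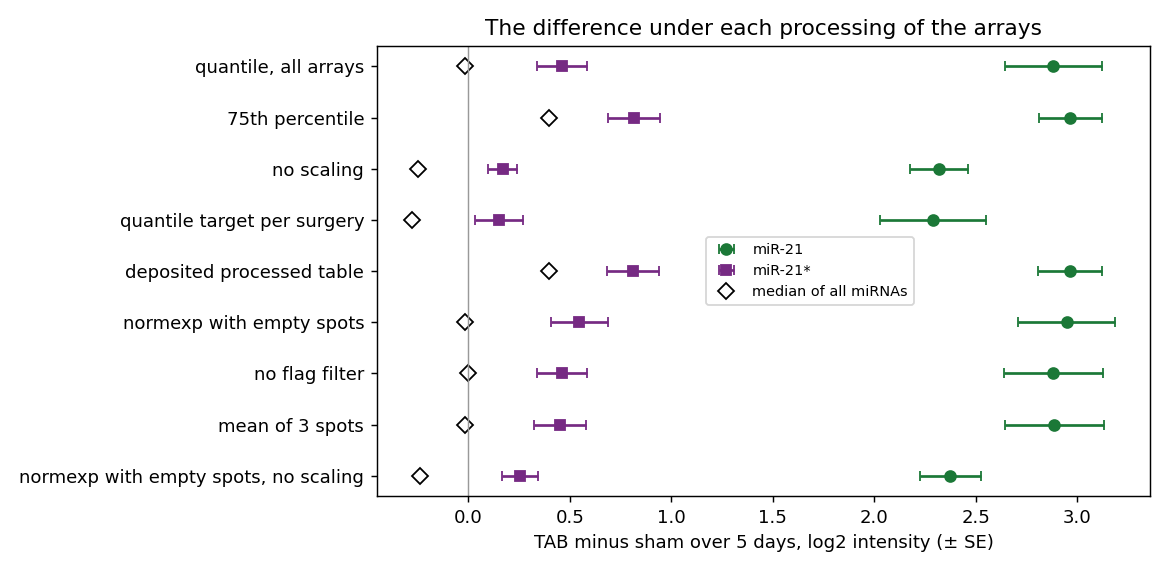
TAB minus sham difference over 5 days (log2 intensity, bars are SE) of miR-21 (green circles), miR-21* (purple squares), and the median of all miRNAs (open diamonds) under 9 ways of processing the arrays. MiR-21 lies between 2.29 and 2.97 in every row, and miR-21* and the median shift together, with miR-21* between 0.15 and 0.82.

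MiRNAs whose levels followed miR-21 most closely over the 10 samples were miR-20a and miR-17, both of the miR-17 seed family (Pearson r = 0.98 and 0.97), miR-301b (0.98), miR-224 (0.97), and miR-142-3p, a miRNA of blood cells (0.97). Of these, miR-301b was found on 5 TAB and 0 sham arrays and miR-224 on 3 TAB and 0 sham arrays, so no sham array gave them a level above the flag limit. MiR-20a, miR-17, and miR-142-3p were 1.05, 1.09, and 1.11 higher in TAB, and 0.53, 0.53, and 0.71 higher without scaling. Closest to miR-21* were miR-142-3p and miR-350* (0.95 each), miR-421 (0.95), miR-3069-5p (0.94), and miR-379 (0.92), of which miR-350* and miR-421 were found on no array. MiR-21 itself came 11th for miR-21*, and miR-21* came 62nd for miR-21.

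Among 19 other miRNAs known from work on heart fibrosis, 10 rose, none fell, and the median difference was 0.32. Over all miRNAs 19.3% rose and 21.8% fell, with a median of -0.02. The common probe for miR-199a-3p with miR-199b (2.06 ± 0.08, SE, adjusted p = 0.000186) and miR-199a-5p (1.68 ± 0.09, adjusted p = 0.000697), products of the miR-199 genes, rose most. MiR-24, of the miR-23/27/24 clusters, rose by 1.12 ± 0.20 (adjusted p = 0.00971), and miR-30c, a repressor of connective tissue growth factor, by 0.86 ± 0.22 (adjusted p = 0.0276). In the miR-29 family, which represses collagen mRNAs, miR-29b and miR-29c rose by 0.83 and 0.53, while miR-29a differed by 0.22 (adjusted p = 0.179). Without scaling miR-29c turned to -0.24, and miR-29b (0.13, limma adjusted p = 0.471) and miR-30c (0.14, adjusted p = 0.610) were not called. With a quantile target per surgery miR-29b (0.11) and miR-30c (0.12) were not called either, and miR-29c was called lower (-0.28, limma adjusted p = 0.0417). The list was sensitive to scaling, with 15 higher and 0 lower at the 75th percentile (63.9% and 11.9% of all miRNAs), 3 higher and 3 lower without scaling (2.91% and 53.9%), and 3 higher and 4 lower with a quantile target per surgery (3.66% and 73.6%). MiR-199a-3p with miR-199b, miR-199a-5p, and miR-24 were higher under both of these.

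Markers of cell types were read beside these results. All 6 heart muscle miRNAs were found on every array, of which miR-208b (1.18) and miR-499 (0.49, and -0.28 without scaling) rose. Of 7 white blood cell miRNAs, 5 rose and none fell (19.3% and 21.8% of all miRNAs), with a median difference of 0.41. Their summed normalized intensity was 1281 to 1617 over TAB samples and 880 to 1271 over sham samples. Such sums overlapped between surgeries in the other cell type lists, except skeletal muscle, at 135 to 162 in TAB and 179 to 220 in sham. The largest differences of the white blood cell list were those of miR-142-3p (1.11) and miR-223, a miRNA of myeloid cells (0.81). They were found on 10 TAB arrays each and on 9 and 10 sham arrays. Without scaling miR-223 was not called (0.37, limma adjusted p = 0.0816). MiR-150 (0.00080, limma adjusted p = 0.997) and miR-155 (0.15, adjusted p = 0.348) did not pass in the main fit. By day, the median of the white blood cell list was 0.31, 0.49, 0.44, 0.05, and 0.41. The lowest of these, on day 14, was not particular to this list, since the heart fibrosis (0.11), heart muscle (-0.21), smooth muscle (-0.46), and liver (-2.06) lists were also lowest on that day. Without scaling 1 of these 7 passed as higher and 1 as lower (2.91% and 53.9% of all miRNAs), and the part of white blood cells in the miR-21 difference was not tested. In the other lists, 2 of 3 red blood cell miRNAs and 1 of 2 endothelial miRNAs rose, against 1 and 0 without scaling. Without scaling 1 red blood cell miRNA also passed as lower. None of 2 smooth muscle miRNAs passed in the main fit, and the skeletal muscle miRNA miR-206 fell by 0.45. At the 75th percentile 1 smooth muscle miRNA passed as higher, and miR-206 was not called (-0.22, limma adjusted p = 0.0543). With a quantile target per surgery 1 smooth muscle miRNA passed as lower, and miR-206 was called lower (-0.90). The liver miRNA miR-122 was found on 3 TAB and 10 sham arrays (-0.69, adjusted p = 0.109). Of brain and epithelial miRNAs, 2 of 3 and 4 of 5 were retained and none passed in the main fit. None of them was found on every array, and miR-137 (brain) and miR-429 (epithelium) were found on no array. These calls moved with the scaling. All 2 and 4 passed as higher at the 75th percentile and in the processed table. With a quantile target per surgery all 2 and 4 passed as lower, and without scaling 1 and 2 passed as lower.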

How the data were processed

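The deposited raw file held the Cy5 intensity of every spot as whole numbers, scanned and flagged by the authors in GenePix with no background subtracted, together with the flag of each spot. A second deposited table, used as an alternative, gave processed linear intensity values, for which the authors dropped miRNAs with negative flags, used medians over repeated spots, and applied quantile normalization to technical replicates. Here, the 3 spots of each of 1086 mouse probes were combined by their median, 158 probes flagged on all spots of all arrays were dropped, and the log2 values of 928 miRNAs were quantile-normalized over 20 arrays with limma 3.58.1 in R 4.3.3. The arrays of each condition were averaged and tested with day as a block (4 residual degrees of freedom). Its error includes changes of the effect between days. Single days were tested on 20 arrays (10 residual degrees of freedom), and late against early days on the averaged samples (3). All tests were two-sided, with Benjamini-Hochberg adjustment over 928 miRNAs and a threshold of 0.05. Alternatives covered scaling, background (normexp with 504 empty spots as negative controls, offset 50), flags, spot averaging, and samples left out. The number of arrays limits the precision. The fit was tested on simulated data. RNAfold was version 2.7.2. Members and lists were chosen with earlier results of these data known. MiRNAs named are the 2 strands, the 5 best correlated with each, the neighbours of miR-21 by rank on each day, list members with the largest differences, and further list members singled out after their values were seen. The list entry miR-212 was matched to the array's name miR-212-3p.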

Additional observations from a re-analysis of the deposited data

How the results depend on the processing

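MiR-21 kept its direction and its call over 5 days in all 19 alternatives (2.29 to 3.05, largest adjusted p = 0.00835) and on each day in all 13. For miR-21*, the 5-day call was lost without scaling (0.17), with a quantile target per surgery (0.15), and with normexp without scaling, an alternative chosen after seeing the data (0.25). Leaving out days or replicates gave 0.38 to 0.56 for miR-21* and 2.72 to 3.05 for miR-21 over 5 days. The day 14 call of miR-21* was lost at the 75th percentile (0.35), without scaling (0.027), with the mean of 3 spots (0.14), and with normexp without scaling (0.082). With a target per surgery it turned, and miR-21* was called lower in TAB (-0.14, limma adjusted p = 0.0449). Single arrays left out gave 0.090 to 0.25 on day 14. On day 28 miR-21* passed at the 75th percentile (0.40) and in the processed table (0.40), and it turned with a target per surgery (-0.20, adjusted p = 0.00790) and with normexp without scaling (-0.0030). The cause of these changes was not tested. Late minus early passed on the 20 arrays only (-1.02 for miR-21, -0.57 for miR-21*); leaving out days or replicates gave -1.28 to -0.89 and -0.63 to -0.52, and without scaling the values were -0.42 and -0.25. Small steps between consecutive days turned. For miR-21 in TAB, day 7 minus day 5 was 0.041 without scaling and 0.041 with normexp without scaling. For miR-21* in TAB, the step of days 5 to 7 was 0.024 without scaling and 0.026 with normexp without scaling, and that of days 14 to 28 was 0.055 at the 75th percentile and 0.043 in the processed table. For miR-21* in sham, at the 75th percentile and in the processed table, day 5 minus day 3 was 0.17 and 0.16, day 7 minus day 5 was -0.0018 and -0.00041, and day 28 minus day 14 was 0.0033 and 0.015. In sham, day 7 minus day 5 was also -0.037 without scaling and -0.10 with normexp without scaling. The gap between the strands was 2.12 to 2.51 in 15 alternatives. With the replicate number as a replicate block, the difference was 2.88 for miR-21 and 0.46 for miR-21* and no call changed; same-numbered arrays of a day did not deviate together in every pair (r = -0.04 to 0.18), so the numbers were not taken to pair arrays.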

Other observations

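MiR-590-5p, known to share a seed with miR-21, is not in the RefSeq table used to count seeds, and it was named after its values were seen. It was found on 0 of 20 arrays, and its TAB minus sham difference was 0.06 ± 0.04 (SE, limma adjusted p = 0.211).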
